A study of Mus musculus with 12 samples.

Results

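Elavl3 and Nova1 encode RNA-binding proteins of neurons, and the m6A peaks on their genes were compared between the hippocampus of 6-week-old and 2-week-old mice. Peaks were taken from a window around each gene in the mouse build mm9, chromosome 9 from 21819000 to 21858000 for Elavl3 and chromosome 12 from 47790000 to 47925000 for Nova1. These windows held 49 of the 148097 peaks in the 4 lists, 20 at Elavl3 and 29 at Nova1. Peaks of different lists that shared at least 1 bp were merged, which gave 20 of the 70674 regions of the series, 11 at Elavl3 and 9 at Nova1. The assay was m6A-IP, in which fragmented poly(A)+ RNA bearing N6-methyladenosine (m6A) is pulled down with an antibody and sequenced. A peak is a stretch of about 100 bp with more sequence tags in the IP than in unselected fragments, the input or control. The libraries were 2 m6A-IP replicates from hippocampi of 6-week-old and 2 from hippocampi of 2-week-old wild-type C57BL/6 male mice, for which the labels name no treatment of the animals. Adult Fto knock-out and wild-type RNA-seq, and the input libraries other than as the control column of each list, were not analysed here.

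ELAVL3, also called HuC, is one of the neuronal Hu proteins, which bind U-rich and AU-rich stretches of messenger RNA through RNA recognition motifs and affect splicing, stability and translation. It is widely used as a marker of cells that have become neurons. NOVA1 binds clusters of YCAY through KH domains and sets the inclusion of alternative exons in neuronal transcripts, many of them for synaptic proteins. m6A is written by the METTL3 complex, can be removed by FTO and ALKBH5, is read by YTH-domain proteins, and lies mostly around stop codons and in 3′ untranslated regions.

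Elavl3 and Nova1 were chosen by measured values of these same libraries, the age differences in input tags (Elavl3) and in enrichment, the ratio of IP to input (Nova1). Differences between the ages at these genes are therefore descriptions, with no test. The tag numbers are given per 10 M (M, mega) tags of the library. The 6-week IP libraries held 16.1 and 16.5 M tags, against 23.4 and 23.0 M for the 2-week ones, and their controls held 15.8 and 11.7 M, against 29.3 and 16.8 M. The labels call the replicates biological and do not say which animals they came from. The lists carry no gene names, and no mm9 gene annotation was used, so exons, introns and untranslated regions are not assigned here, and markers of hippocampal cells were not checked. In hippocampal tissue, fewer cells of a type and less RNA per cell cannot be told apart.

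Most IP tags in peaks of both genes lay toward the low-coordinate end of the window. Both genes are on the minus strand in the RefSeq table of GRCm38, so this is the side of the 3′ end. In that table no other gene overlaps either of them. The neighbours are Prkcsh and Zfp653 for Elavl3 and Gm7422 and Gm2089 for Nova1. At Elavl3 the first 5 kb of the window held 65.2% and 94.7% of the IP tags of called peaks in 6-week replicates 1 and 2, and 99.1% and 97.5% in 2-week replicates 1 and 2. At Nova1 the first 5 kb held no peak in any library. Its first 15 kb held 100% and 96.5% of IP tags in peaks at 6 weeks and 87.3% and 85.6% at 2 weeks. Nova1 is the longer window, and 5 of its 9 regions began between 9.28 and 11.7 kb from the low end.

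**Figure D1:**
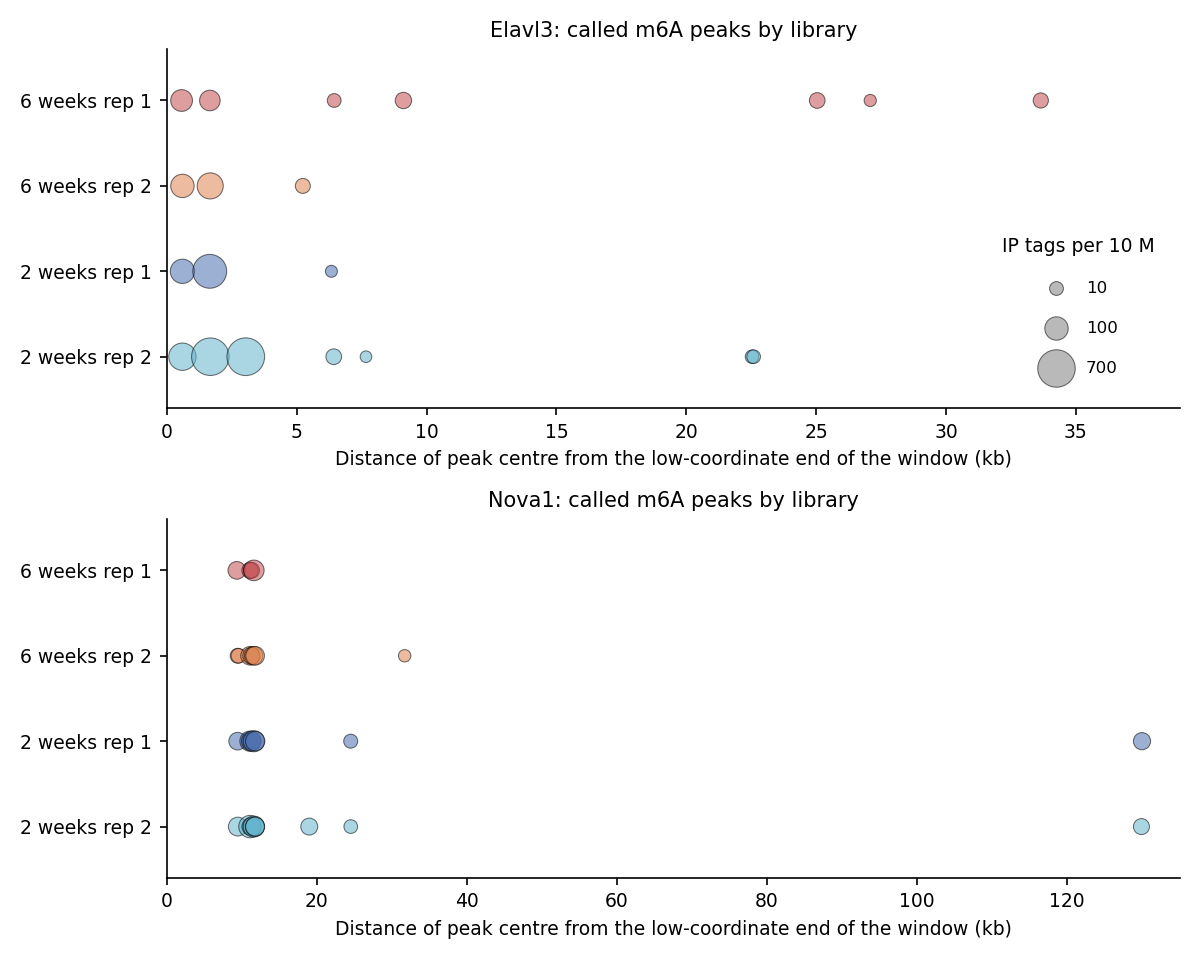
Called m6A peaks along the Elavl3 and Nova1 windows, by library. The x axis is the distance of the peak centre from the low-coordinate end of the window in kb, each row is a library, and the area of a point grows with the square root of its IP tags per 10 M. The 2 low-end regions of Elavl3 and the group of regions near 11 kb at Nova1 appear in every row, with larger points for Elavl3 at 2 weeks.

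The number of peaks varied between replicates. At Elavl3 there were 7 and 3 peaks in 6-week replicates 1 and 2, against 3 and 7 in 2-week replicates 1 and 2. At Nova1 there were 4 and 7 peaks at 6 weeks, against 8 and 10 at 2 weeks. The ranges of the ages overlapped at Elavl3 and not at Nova1. Over the whole series they did not overlap either, with 33239 and 36494 peaks at 6 weeks, against 39259 and 39105 at 2 weeks. The 2-week IP libraries were also the deeper ones. Depth and age cannot be told apart.

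At Elavl3, 2 regions were called in all 4 libraries, 8 in a single library and 1 in 3 libraries, and none was called in both libraries of one age only. Over the whole series, 58.6% of regions came from a single list and 14.4% from all 4. Region A of Elavl3 lay on chromosome 9 from 21819518 to 21819651 and region B from 21820602 to 21820725, 951 bp further up. The region called in 3 libraries, from 21825286 to 21825493, held 16 IP tags in 6-week replicate 1, against 12 and 41 in 2-week replicates 1 and 2. Of the 8 regions seen in 1 library, 4 came from 6-week replicate 1, 1 from 6-week replicate 2 and 3 from 2-week replicate 2. All but 1 of them were small, with 9 to 35 IP tags a peak. A peak from 21826618 in 2-week replicate 2 held 10 IP tags and 0 control tags, and one from 21846034 in 6-week replicate 1 held 9 and 0.

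The exception, from 21821989 to 21822089, had the most IP tags of any peak at either gene. It held 1647 IP tags and 354 control tags in 2-week replicate 2, or 717 IP and 210 input tags per 10 M. Its enrichment was 3.41-fold (95% exact binomial interval 3.04 to 3.84), close to the 3-fold minimum at which all lists begin. The other 3 lists have no peak there, and a list gives no tags where it has no peak.

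Of the Nova1 regions, 4 were present in every list, 2 at 2 weeks only, 2 in a single list and 1 in 3 lists. The regions called in all 4 were region A, from 47799283 to 47799594, region B, from 47800998 to 47801147, region C, from 47801205 to 47801339, and region D, from 47801530 to 47801645. They lay close together, with 58 bp between B and C and 191 bp between C and D. The next region of this group, from 47801669 to 47801822, was called in 3 libraries and not in 6-week replicate 1. Its leading peak held 38.2 IP tags per 10 M in 6-week replicate 2, against 45.2 and 41.4 at 2 weeks. In 2-week replicate 2, 2 overlapping peaks of this region, starting at 47801669 and 47801720, carried the same tag numbers, 95 IP and 10 control.

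The Nova1 regions called at 2 weeks only differed in size. The one from 47814455 to 47814566 held 25 and 22 IP tags in 2-week replicates 1 and 2. The other, from 47919841 to 47920019, held 63 and 45 IP tags at enrichments of 6.57 and 6.60. It stood apart from all other Nova1 peaks, 129.8 kb from the low end of the window, on the side of the 5′ end. Regions found only at 2 weeks made up 6.41% of the series, and those found only at 6 weeks 1.92%. No region of either gene was called at 6 weeks only. A single 6-week replicate 2 peak, from 47821645, held 10 IP tags and 1 control tag, and a 2-week replicate 2 peak, from 47808933, held 58 and 14.

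Region B of Elavl3 carried far fewer tags at 6 weeks in both fractions. It held 58.3 and 158 IP tags per 10 M in 6-week replicates 1 and 2, against 463 and 703 in 2-week replicates 1 and 2. Its input held 17.1 and 5.98 tags per 10 M at 6 weeks, against 71.98 and 74.9 at 2 weeks. Both 6-week libraries lay below both 2-week libraries in IP and in input, and the 2-week inputs were close to each other while the 6-week inputs differed. The mean IP level was 108 ± 70.6 tags per 10 M in 6-week libraries, against 583 ± 170 in 2-week libraries (SD, n = 2 for each age). The mean input level was 11.5 ± 7.87 in 6-week libraries, against 73.4 ± 2.04 in 2-week libraries.

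The position of region B among all regions moved accordingly. Age changes were fitted over the 4577 regions of the series with exactly 1 peak in each list, among them 2 of Elavl3 and 2 of Nova1. In these regions the input of Elavl3 region B stood above that of 62.4% at 6 weeks and 93.6% at 2 weeks. Its IP tags stood above 73.2% at 6 weeks and 95.7% at 2 weeks. Elavl3 region B was thus among the higher inputs of the series at 2 weeks and nearer the middle at 6 weeks, where the median input was 7.75 tags per 10 M, against 11.6 at 2 weeks.

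Region A, less than 1 kb away, differed between the ages by less. It held 74.4 and 99.9 IP tags per 10 M at 6 weeks, against 118 and 193 at 2 weeks. Its input was 22.8 and 14.5 tags per 10 M at 6 weeks, against 36.2 and 36.8 at 2 weeks. Here too both 6-week libraries lay below both 2-week libraries in both fractions. At 2 weeks region B had the higher input of the pair in both libraries, and at 6 weeks region A had it in both.

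**Figure D2:**
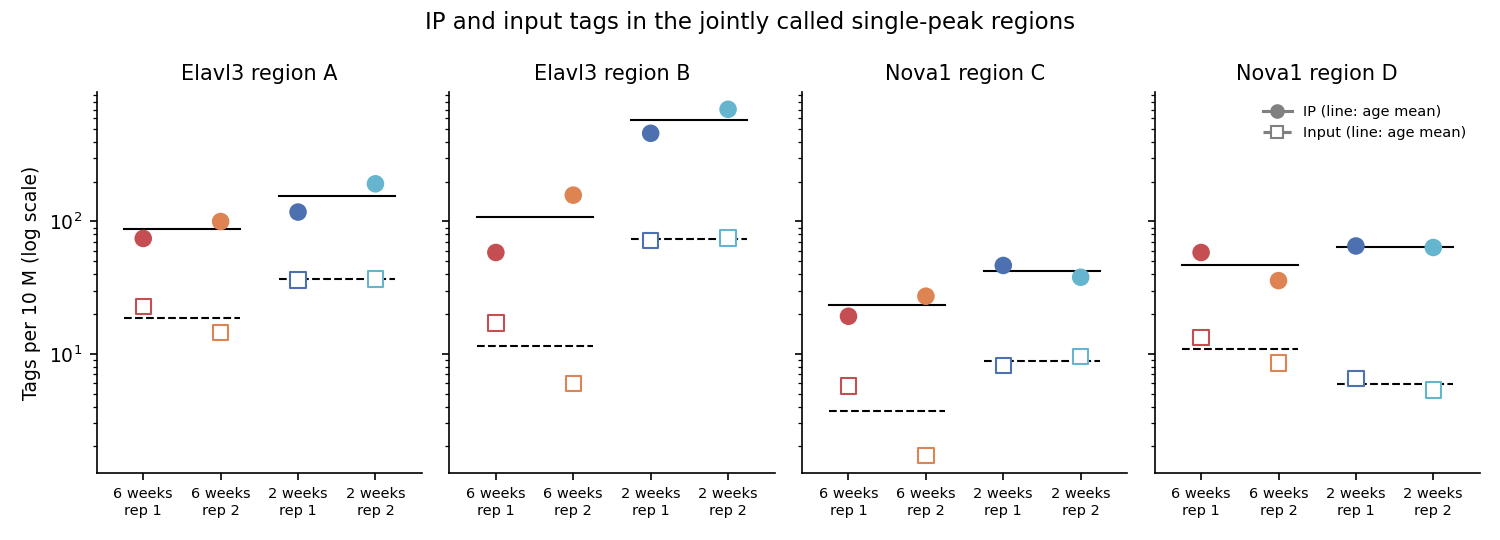
IP tags (filled circles, solid line at the age mean) and input tags (open squares, dashed line at the age mean) per 10 M on a log scale, by library, in the 4 member regions with exactly 1 peak in each list. In Elavl3 region B the input was 17.1 and 5.98 at 6 weeks and 71.98 and 74.9 at 2 weeks, while in Nova1 region D the 6-week inputs lay above the 2-week ones.

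At Nova1 the regions did not move together. Region D had 58.3 and 35.7 IP tags per 10 M at 6 weeks, against 65.3 and 63.6 at 2 weeks. Its input was 13.3 and 8.54 tags per 10 M at 6 weeks, against 6.48 and 5.35 at 2 weeks. The 6-week inputs thus lay above both 2-week inputs, while the 6-week IP values lay below both. The 6-week inputs rested on 21 and 10 control tags, and the 2-week inputs on 19 and 9.

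Region C, the neighbour of D, had 19.2 and 27.3 IP tags per 10 M at 6 weeks, against 46.5 and 37.9 at 2 weeks. Its input was 5.70 and 1.71 tags per 10 M at 6 weeks, against 8.19 and 9.51 at 2 weeks, and both fractions lay below the 2-week values. The 6-week inputs of region C rested on 9 and 2 control tags. In region B, where the 2-week lists have 2 overlapping peaks, the leading peak held 21.1 and 38.8 IP tags per 10 M at 6 weeks, against 54.2 and 83.2 at 2 weeks. Its input was 4.43 and 4.27 at 6 weeks, against 7.85 and 6.54 at 2 weeks, with no overlap in either fraction. In region A the leading peak held 30.4 and 13.9 IP tags per 10 M at 6 weeks, against 29.9 and 39.6 at 2 weeks. The ages overlapped there in IP. Its input was 3.17 and 1.71 at 6 weeks, against 9.89 and 3.56 at 2 weeks, with no overlap.

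Lower tags per 10 M at 6 weeks were common across the series. Of the 4577 regions, both 6-week libraries lay below both 2-week libraries in 48% for input and 43.2% for IP, and above both in 6.88% for input and 6.49% for IP. For enrichment both 6-week libraries lay above both 2-week libraries in 19.7% of regions and below both in 10.1%. In these enrichment shares a library with 0 input tags entered as infinite enrichment, and the 6-week controls were the shallower ones. Among the 4 member regions, input lay below in 3 and above in 1, IP lay below in 4, and enrichment lay below in 1 and above in 0. With 2 libraries against 2, an exact two-sided test cannot give a p under 0.33. When regions were scaled by total tags, the median log2 change was -0.53 for input and -0.37 for IP. The fitted changes below use TMM scaling, which centres the typical region near 0, and are therefore changes relative to it.

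Relative to the typical region, the log2 input change of Elavl3 region B was -2.10 ± 0.42 (SE, derived from edgeR's F statistic), and 91 of the 4577 regions had a lower one. Its log2 IP change was -1.83 ± 0.51, with 6 regions lower. Its log2 enrichment change was -0.06 ± 0.55, near the median of all regions, 0.02. IP and input tags thus differed by similar amounts and their ratio by little on average. In region A of Elavl3 the log2 changes were -0.43 ± 0.41 for input, -0.32 ± 0.41 for IP and 0.04 ± 0.46 for enrichment. With 6-week replicate 1 left out its IP change was 0.12, and with 6-week replicate 2 left out it was -0.93, so 1 library decides its sign.

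For Nova1 region D the order was different. Its log2 input change was 1.38 ± 0.52, with 189 of the 4577 regions higher. Its log2 IP change was -0.07 ± 0.38. Its log2 enrichment change was -1.46 ± 0.54, with 34 regions lower. The difference in enrichment at region D therefore came with a higher input beside an IP near that of the typical region. In region C the log2 changes were -0.64 ± 0.60 for input, -0.38 ± 0.45 for IP and 0.13 ± 0.64 for enrichment. Leaving out 6-week replicate 1 put its input change at -1.71 and its IP change at 0.10, and leaving out 6-week replicate 2 put them at -0.18 and -1.03, so the sign of the IP change rests on 1 library. When the fit took in all regions called in 4 libraries, with the leading peak of each list, the log2 enrichment change was 0.76 ± 0.75 in region A of Nova1 and -0.52 ± 0.66 in region B.

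**Figure D3:**
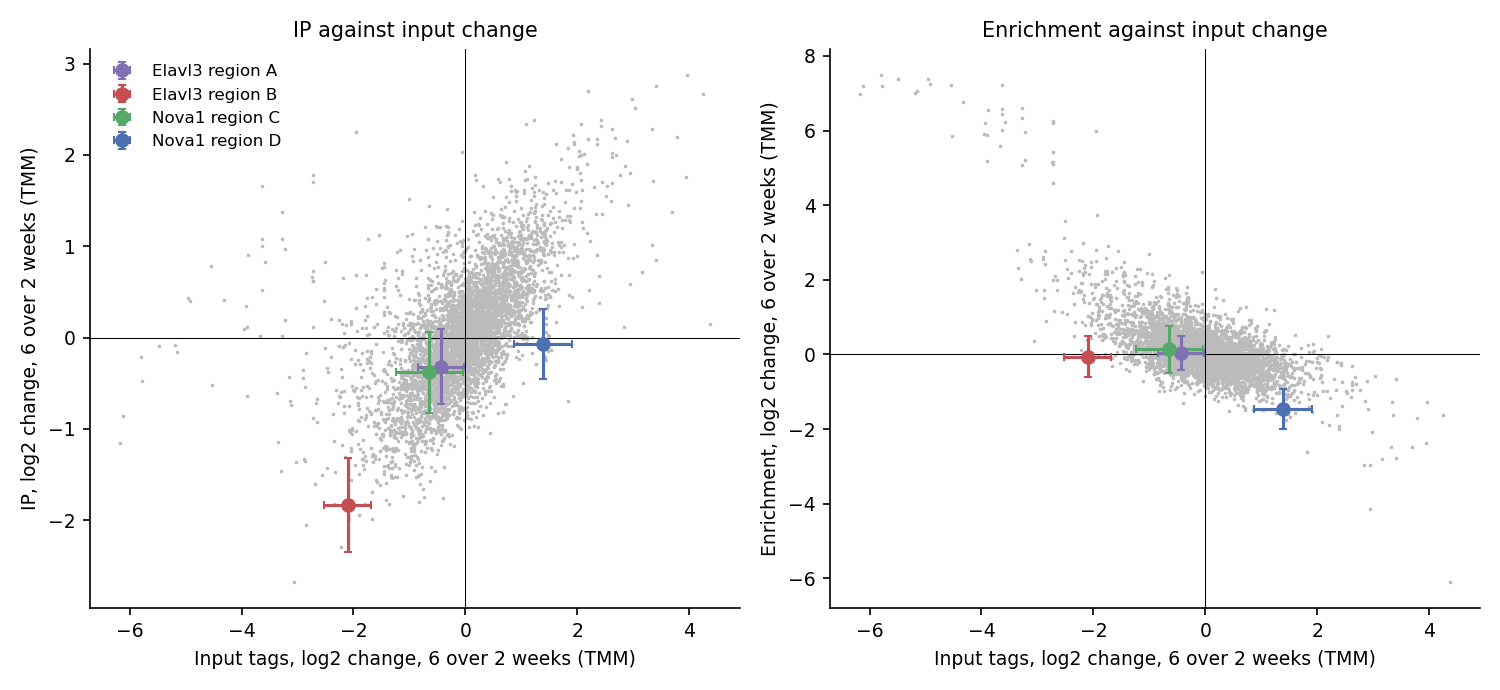
Log2 changes at 6 over 2 weeks on the TMM scale for 4577 regions (grey) and the 4 member regions (coloured, bars show the SE), with IP change against input change on the left and enrichment change against input change on the right. Elavl3 region B lies at -2.10 for input, -1.83 for IP and -0.06 for enrichment, and Nova1 region D at 1.38 for input, -0.07 for IP and -1.46 for enrichment. Input tags enter both axes of the right panel.

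Over the whole table, edgeR's quasi-likelihood test with Benjamini-Hochberg adjustment put 1.2% of regions past an adjusted p of 0.05 toward higher input at 6 weeks and 1.07% toward lower input. Of the 4 member regions, 1 was past it, Elavl3 region B, toward lower input. Since the genes were chosen with this contrast known, nothing is read from that count. For IP tags 0.852% were called higher and 0.24% lower, with 0 of the 4 member regions in edgeR with all 4 libraries and no block for replicate number, and 799 of the 4577 regions at an unadjusted p under 0.05. Elavl3 region B was called lower in IP by DESeq2, at a log2 change of -1.82, as 1 of 44 regions called lower among the 4577. EdgeR with the replicate block also called it lower, at -2.13, as 1 of 78. With total-tag scaling in edgeR (-2.43), in limma (-2.56) and over all regions called in 4 libraries (-1.84) it was not called. Without 6-week replicate 2 its log2 IP change was -3.20. For enrichment 0% were called in either direction in edgeR, DESeq2 or limma, with 129, 28 and 140 of the 4577 regions at an unadjusted p under 0.05. Each fitted region was called in every list, at 3-fold enrichment or more. A region that fell below 3-fold in any library was therefore left out, and such a loss could not be called. Without 2-week replicate 1 or without 2-week replicate 2, edgeR called 0 regions of the series for input (280 and 368 at an unadjusted p under 0.05), and the log2 input change of Elavl3 region B was -2.06 and -2.17.

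The average enrichment of Elavl3 region B hid a wide spread between the 6-week replicates. Its enrichment was 3.41 (95% interval 2.201 to 5.44) and 26.5 (12.7 to 66.4) in 6-week replicates 1 and 2, against 6.44 (5.55 to 7.50) and 9.40 (7.83 to 11.4) in 2-week replicates 1 and 2. These intervals are exact binomial intervals and cover counting error only. The 6-week values lay on either side of both 2-week values, and the 6-week intervals did not overlap each other. The 6-week values rested on 27 and 7 control tags, and the 2-week values on 211 and 126. With 6-week replicate 1 left out the log2 enrichment change was 1.92, and with 6-week replicate 2 left out it was -1.46, so 1 library decides its direction. Leaving out 6-week replicate 1 put its log2 IP change at -1.13 and its log2 input change at -2.99. Leaving out 6-week replicate 2 put them at -3.20 and -1.66.

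Region A of Elavl3 showed the same order of replicates with less distance between them. Its enrichment was 3.26 (2.23 to 4.88) and 6.89 (4.17 to 12.1) at 6 weeks, against 3.26 (2.59 to 4.11) and 5.23 (4.0 to 6.93) at 2 weeks. Replicate 2 was the more enriched at both ages. Without 6-week replicate 1 its log2 enrichment change was 0.90, and without 6-week replicate 2 it was -0.60.

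Nova1 region D had the most alike replicates of the 4 member regions. Its enrichment was 4.38 (2.71 to 7.41) and 4.19 (2.12 to 9.18) at 6 weeks, against 10.1 (6.23 to 17.2) and 11.9 (6.09 to 26.5) at 2 weeks. Both 6-week values lay below both 2-week values, while the counting intervals of the ages still overlapped. The log2 enrichment change was between -1.60 and -1.21 in all alternatives run. Nova1 was chosen by this same difference, and the alternatives reuse tags of the same libraries, so the range is a description.

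The other Nova1 regions showed no such separation of the ages. Region C had an enrichment of 3.37 (1.57 to 8.05) and 16.0 (4.17 to 136) at 6 weeks, against 5.68 (3.63 to 9.25) and 3.99 (2.32 to 7.28) at 2 weeks. Its log2 enrichment change was 1.84 when 6-week replicate 1 was left out and -0.82 when 6-week replicate 2 was. Region B had 4.75 (2.07 to 12.7) and 9.08 (3.70 to 28.9) at 6 weeks, against 6.91 (4.41 to 11.3) and 12.7 (6.96 to 25.9) at 2 weeks. Region A had 9.59 (3.84 to 30.9) and 8.16 (2.02 to 71.4) at 6 weeks, against 3.02 (1.93 to 4.83) and 11.1 (4.92 to 31.1) at 2 weeks. In these 3 regions the ages overlapped.

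**Figure D4:**
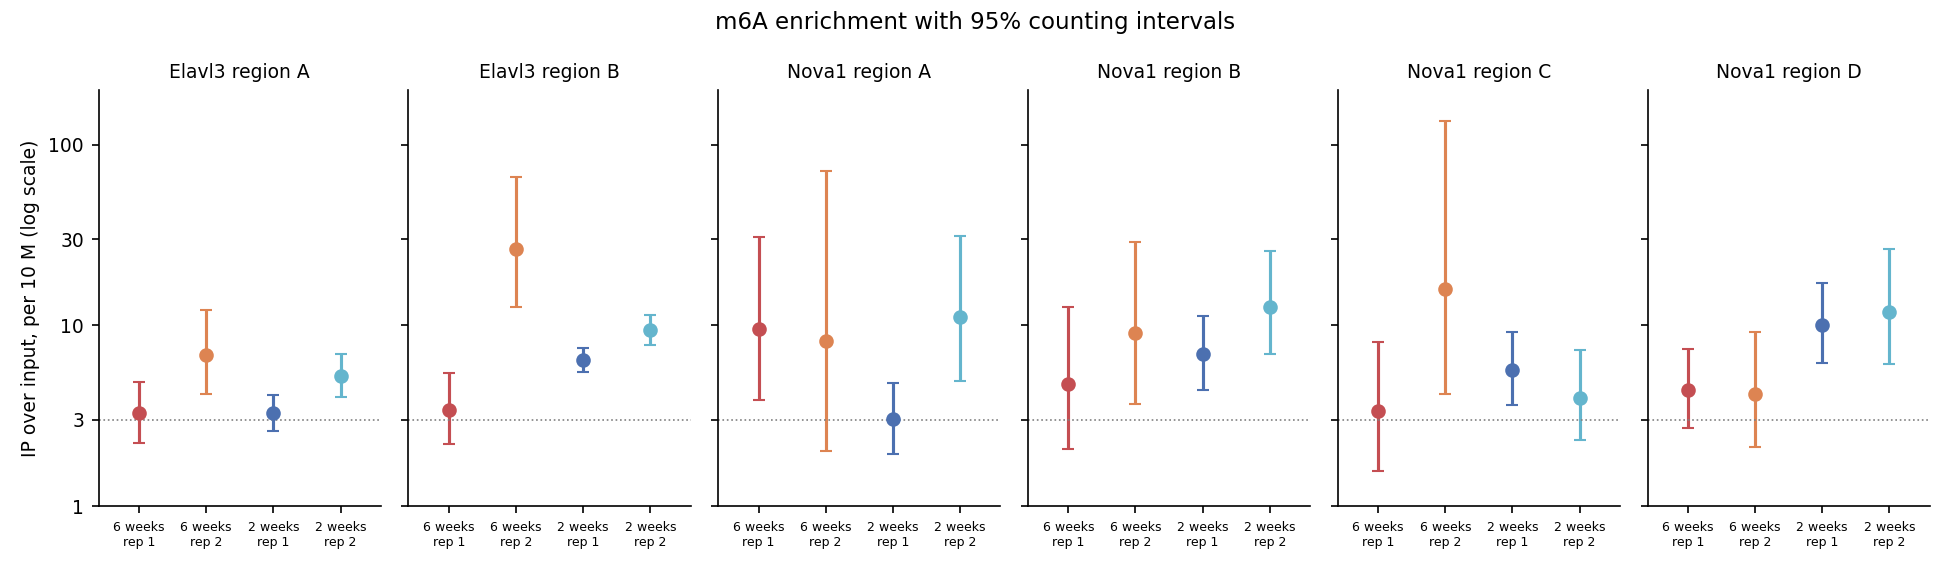
Enrichment (IP over input tags per 10 M, log scale) by library in the 6 regions called in all 4 libraries, each with the leading peak of the list. Bars are 95% exact binomial intervals, which cover counting error only, and the dotted line is the 3-fold minimum of the lists. In Nova1 region D the 6-week points (4.38 and 4.19) lie below the 2-week points (10.1 and 11.9), and in Elavl3 region B the 6-week points (3.41 and 26.5) lie on either side of the 2-week ones.

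Regions within 1 gene can be compared with neighbouring regions elsewhere. Of the 4577 regions, 826 consecutive pairs lay at most 2000 bp apart. Since the genes were chosen by input (Elavl3) and enrichment (Nova1) differences of these libraries, the ranks among pairs are descriptions. Nothing about how rare such a gap is was read from them. The log2 input changes of Elavl3 regions A and B differed by 1.67, and 51 of the 826 pairs differed by more. Their log2 IP changes differed by 1.51, with 12 pairs further apart, and their log2 enrichment changes by 0.11, with 716 pairs further apart. The log2 input changes of Nova1 regions C and D differed by 2.02, with 26 pairs further apart, and their enrichment changes by 1.60, with 54 pairs further apart. Their IP changes differed by 0.31. The medians over all pairs were 0.56 for input, 0.38 for IP and 0.47 for enrichment. Each list gives input tags for its own peak, and the peak starts lay up to 23 bp apart in Elavl3 region B, 33 bp in Elavl3 region A, 34 bp in Nova1 region C and 15 bp in Nova1 region D.

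Summed over the 2 single-peak regions, Elavl3 held 133 and 258 IP tags per 10 M at 6 weeks, against 581 and 896 at 2 weeks. Its summed input was 39.9 and 20.5 tags per 10 M at 6 weeks, against 108 and 112 at 2 weeks. The 6-week over 2-week ratio of the means was 0.275 for input and 0.265 for IP. Nova1 held 77.5 and 63.0 IP tags per 10 M at 6 weeks, against 112 and 101 at 2 weeks. Its summed input was 19.0 and 10.2 at 6 weeks, against 14.7 and 14.9 at 2 weeks, so that the 6-week inputs lay on either side of the 2-week ones. The ratio of the means was 0.991 for input and 0.659 for IP. Sums over all called peaks gave other input values. For Elavl3 they were 48.8 and 21.3 tags per 10 M at 6 weeks, against 109 and 330.3 at 2 weeks, where the peak called in 2-week replicate 2 alone held 210 of the 330.3. For Nova1 they were 26.6 and 24.8 tags per 10 M at 6 weeks, against 52.9 and 51.7 at 2 weeks, from 4 and 7 peaks against 8 and 10, with tags shared by overlapping peaks counted in each.

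The regions most like Elavl3 region B in pattern were found by the distance over 8 values, the log2 IP and input tags per 10 M (plus 1) in the 4 libraries, each fraction centred on its own mean. The nearest, at a distance of 0.97, lay on chromosome X from 34427688 to 34427864. The next lay on chromosome 5, from 144049050 to 144049157 at a distance of 1.03 and from 143040543 to 143040692 at a distance of 1.14, while the median distance of all regions was 3.65. The last of these held 91.2 and 141 IP tags per 10 M at 6 weeks, against 444 and 386 at 2 weeks. Its input was 28.5 and 11.1 at 6 weeks, against 117 and 89.1 at 2 weeks. The first and second had 0 input tags in 6-week replicate 2. Nearest to Nova1 region D was a region on chromosome 5 from 116095888 to 116096088, at a distance of 0.42. A region on chromosome 8 from 113796878 to 113796991 had a distance of 0.47. Another on chromosome 3 from 152189145 to 152189389 had a distance of 0.50, with a median of 1.73 over all regions. The chromosome 5 region held 162 and 86.6 IP tags per 10 M at 6 weeks, against 179 and 140 at 2 weeks, with inputs of 39.9 and 28.2 at 6 weeks, against 27.6 and 18.4 at 2 weeks. With 4 libraries many regions share a pattern, and the genes at these positions were not assigned.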

How the data were processed

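Per the submitters' processing notes, HOMER, Cufflinks 2.2.1, TopHat2 in versions 2.0.13 and 2.1.1, and Bowtie2 2.2.3 were used with build mm9. Per the file headers, the lists are HOMER peak calls, 1 list per library. Neither the peak calling options nor the control library behind each list is given in the sources used here. Whole IP counts were deposited for 2-week replicate 1, and the other deposited tag columns are a signal, scaled by 1 constant per library or, for 3 control columns, whole tags. A deposited 0.5 stands for no control tag. The deposited fold ratio over control was at least 3, and the deposited p-value at most 8.32e-05. The deposited score, the focus ratio (a fraction) and the clonal fold were not used.

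Whole tags were recovered by dividing by the value of 1 tag. All IP values came out whole within 0.2 tag, and in 2-week replicate 1 all equalled the deposited counts. Depths assume the signal is per 10000000 tags, HOMER's default. Regions with exactly 1 peak in each list were fitted with edgeR 4.0.16 (TMM, quasi-likelihood), for input with an offset for peak width, and for enrichment as the interaction of fraction and age. The SE of an edgeR change is the size of the log2 change divided by the square root of its F statistic. Alternatives used DESeq2 1.42.0 and limma 3.58.1 in R 4.3.3, and other steps Python 3.11.15, pandas 2.3.3, numpy 2.4.6 and scipy 1.17.1. The fits were also run on simulated counts without replicate effects. For input and IP these counts had a lower dispersion than the data (common dispersions 0.0548 and 0.0767). No rate of false calls is therefore taken from them. Every region in the windows was accounted for, and the 3 regions nearest in pattern were named for the region with the highest mean IP tags at each gene among those with exactly 1 peak in each list. Genes and regions were chosen with earlier results of these data known. P-values set an age difference against the spread between these samples, which was estimated with help from all fitted regions. A list has no tags where it has no peak. Strand was not used, since every peak carries the same sign.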

Additional observations from a re-analysis of the deposited data

How the results depend on the processing

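Limma on log2 tags per 10 M (plus 1) and the fit of all regions called in 4 libraries were added after the data were seen. For input, 55 regions were called higher and 49 lower at 6 weeks. Total-tag scaling changed these to 21 and 370, DESeq2 to 24 and 15 (3461 regions had no adjusted p), starts within 20 bp to 14 and 14 of 1435 regions, limma to 4 and 46, and all 10203 regions called in 4 libraries to 40 and 29. With 1 library left out, where the single library of an age takes the spread of the other age, the range was 0 to 85 higher and 0 to 72 lower, with edgeR calling 0 without 2-week replicate 1 or 2 (280 and 368 at an unadjusted p under 0.05). For IP, 39 were higher and 11 lower. DESeq2 gave 60 and 44, starts within 20 bp 17 and 5, all regions called in 4 libraries 5 and 1, and total-tag scaling in edgeR and limma 0 and 0 (736 and 733 at an unadjusted p under 0.05). With 1 library left out the ranges were 3 to 402 and 1 to 325. Enrichment calls were 0 except when 1 library was left out, with 0 to 20 higher and 0 to 1 lower, the 20 and 1 without 6-week replicate 2. With the replicate block, IP calls were 112 and 78, with Elavl3 region B among the lower at -2.13, input calls 56 and 49, and enrichment calls 0. Same-numbered libraries deviated together over the regions with a correlation of 0.0262 in IP and 0.0526 in input. Replicate 2 had the higher median fold over control at both ages, 6.38 against 6.2 at 6 weeks and 7.33 against 5.97 at 2 weeks. What same-numbered libraries share was not tested. A mean of at least 10 tags left 3242 regions for input, with 53 called higher and 36 lower. For IP it removed no region, so the IP counts could not change. At least 99.99% of the peaks of each list were 100 bp wide. Leaving out the width offset could therefore hardly change the input counts, which stayed at 55 and 49. The causes were not tested.

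At 8-fold or more, Elavl3 had 3 and 2 peaks at 6 weeks and 0 and 2 at 2 weeks, and Nova1 had 1 and 3 at 6 weeks and 1 and 4 at 2 weeks. No region was then called in all 4 libraries at either gene, 1 Nova1 region was called at 2 weeks only, and 5 Elavl3 regions and 1 Nova1 region in a single library; fewer peaks enter by construction. Merging peaks within 200 bp joined the 4 Nova1 regions called in all libraries into 2. Leaving out 1 library gave, at Elavl3, 2 to 3 regions called in all libraries, 0 to 4 at 6 weeks only, 0 to 3 at 2 weeks only and 3 to 6 in a single one, and at Nova1 3 to 5, 0 to 1, 2 to 4 and 1 to 2, since a lone list needs no second call.

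The log2 ratio of summed Elavl3 tags at 6 over 2 weeks was -1.86 for input, -1.92 for IP and 0.25 for IP over input. For input it was -2.65 over all peaks and -1.36 with TMM factors. Leaving out 1 library gave -2.42 to -1.46 for input, -2.48 to -1.52 for IP and -1.01 to 0.91 for IP over input. For Nova1 it was -0.01 for input, -1.03 over all peaks and 0.50 with TMM factors. For Nova1 IP it was -0.60, -1.16 over all peaks and -0.18 with TMM factors, and for IP over input -0.50 and -0.13 over all peaks. Leaving out 1 library gave -0.53 to 0.36 for Nova1 input, -0.76 to -0.46 for IP and -0.83 to -0.23 for IP over input. Of the member changes, only the Elavl3 region B input was past the threshold in edgeR with all 4 libraries, TMM and no replicate block. Elavl3 was chosen by this same difference. The log2 input change of region B lay between -2.99 and -1.66 in the alternatives that held it, and the fit of starts within 20 bp did not. Enrichment of the 6-week libraries is limited by their control tags, which numbered 2 to 36 in the 4 member regions.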
